A study of Mus musculus with 18 samples.

Results

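Control libraries of 2 mouse embryonic stem (ES) cell lines, E14 and E36, were compared across all transcripts of the deposited expression table. The members were chosen by column: the E14 library that carries a scrambled hairpin (shCtrl) and the E36 ES wild type library, which are 2 of the 18 samples of the series. Of the other samples, 4 are RNA-seq libraries used here for reference and 12 are ChIP-seq samples not analysed here. All lines have the 129/Ola background per the labels and were kept on gelatin in 15% serum with leukemia inhibitory factor (LIF), which holds ES cells in self-renewal. E14 shCtrl cells are labelled wild type and, per the labels' protocols, received the lentiviral vector pLKO.1, were selected with puromycin and were harvested 4 days after selection. E14 shSetd2 cells had the same handling with a hairpin against Setd2, the enzyme that places trimethylation on lysine 36 of histone H3. The E36 side had ES wild type cells, ES cells labelled Eed KO, and embryoid bodies (EBs, differentiating aggregates) of both genotypes. Per the labels' protocols EBs formed without LIF over 48 h in hanging drops, received all-trans-retinoic acid at 0.5 µM from day 2 to day 5 and stayed in culture up to day 9, so the EB levels below are those of treated, differentiating cells. No vector is named for the E36 cells. Eed is a core subunit of Polycomb repressive complex 2, which methylates lysine 27 of histone H3. The series contrasts the Eed genotypes and the Setd2 hairpins, each within its own line.

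Each group held 1 library, so there is no replicate error, no test and no p-value. Line, vector, hairpin, puromycin and library cannot be told apart in E14 shCtrl against E36 wild type, called the control pair below. E14 shSetd2 against E36 Eed KO, called the second pair, shares no library with the control pair and gives another E14 library and another E36 library. Both members of that second pair carry a further perturbation, and both E14 libraries carry a vector. Levels are given as FPKM, the fragments of a transcript scaled to its length and to the size of the library, and differences are E14 minus E36 on the log2(FPKM + 1) scale. Genes reaching 1 FPKM in 1 of the 2 libraries of a pair were taken as expressed, and counted as higher or lower by the size rule at a difference of at least 1 in size.

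ES cells come from the inner cell mass of the blastocyst. In serum and LIF a culture mixes naive cells, which resemble that tissue and express genes such as Esrrb and Tfcp2l1, with cells closer to the primed epiblast of the implanting embryo, which express Pou3f1 and Otx2. Lines kept apart can come to differ in DNA sequence, in the copy number of chromosomes or segments, in imprints and in the balance of these states.

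The values hold no read counts, and summed FPKM, being scaled to library size, does not give the size of a library. Summed FPKM was 590611 in E14 shCtrl and 598935 in E36 wild type, with 11985 and 12262 genes at an FPKM of at least 1. Relative depth, from the lowest steps of the values, was 1.21 in E14 shCtrl, 0.895 in E14 shSetd2 and 1.18 in E36 Eed KO, with E36 wild type set to 1. All 8 ES markers were at an FPKM of at least 1 in the control pair, and their summed FPKM ranged from 2699 to 3996 over the 4 ES libraries. Summed FPKM of 8 feeder fibroblast markers was 10.1 and 11.8 in the E14 libraries against 30.8 and 16.9 in the E36 ES libraries, with Lum listed at 0 in the control pair. Only 3 of these feeder markers reached an FPKM of 1 in the control pair. Summed trophoblast markers spanned 10.6 to 34.4, neural markers 50.6 to 91.4, extraembryonic endoderm markers 4.11 to 9.83 and mesoderm markers 1.45 to 3.06 over the same 4 libraries. In the control pair 5 of 7 trophoblast, 4 of 6 neural, 4 of 8 endoderm and 1 of 5 mesoderm markers reached an FPKM of 1. Setd2 was at 2.59 in E14 shSetd2 and between 16.8 and 20.3 in the other 3 ES libraries. Eed was at 77.8 in the library labelled Eed KO and 72.3 in E36 wild type, so the transcript level does not check that label. Y-linked Eif2s3y was at 35.1 and 29.6 in E14 and 36.9 and 20.4 in E36 ES cells, and Xist, which marks an inactive X chromosome, summed over its transcripts did not exceed 1.09 in any of them. Nothing in the labels says whether libraries came from separate cultures.

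Of 12747 genes expressed in the control pair, 400 (3.14%) were higher and 720 (5.65%) were lower in E14. Taking each transcript on its own gave 593 higher (3.84%) and 986 lower (6.39%) of 15423. In the second pair, 319 of 12746 genes (2.5%) were higher and 853 (6.69%) lower in E14. Both pairs had the same call for 123 higher (1%) and 178 lower (1.45%) of the 12270 genes expressed in each. Thus 30.8% of the genes higher and 24.7% of those lower in the control pair passed in the second pair, and 38.6% and 20.9% the other way round. A stricter grouping, chosen after the data were seen, required the lowest E14 library and the highest E36 ES library to lie apart by the size rule, which 88 genes (0.666%) did upward and 131 (0.991%) downward. The median difference of all expressed genes was -0.10 in the control pair and -0.19 in the second pair. Rescaling by the median of ratios brought these to 0.01 and 0.02 and gave 475 higher and 561 lower in the control pair, so that the higher share of the calls went from 35.7% to 45.8%. Small RNA genes were recognised by names such as Mir, Snor, Scarna and Rnu, so short RNAs named otherwise, such as AF357425, were not counted as such. Small RNA genes, which FPKM measures poorly, made up 71 of the 400 higher and 67 of the 720 lower genes. Without them, 329 of 12508 genes (2.63%) were higher and 653 (5.22%) lower in the control pair, and 105 (0.868%) and 159 (1.31%) of 12093 passed in both pairs.

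**Figure D1:**
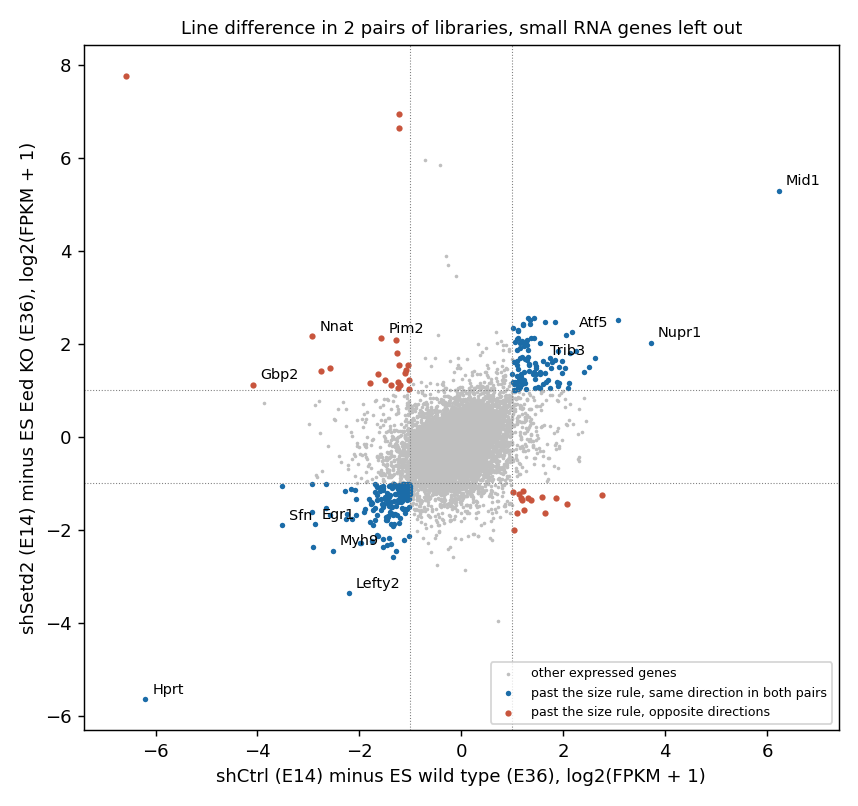
Difference of log2(FPKM + 1) of each gene expressed in both pairs, with the control pair on the horizontal and the second pair on the vertical axis. Genes with small RNA names are left out, but short RNAs named otherwise, such as AF357425 (-6.57 and 7.77), are shown. Dotted lines mark the size rule of 1. Mid1 (6.23 and 5.30) and Hprt (-6.20 and -5.65) lie at opposite corners, 105 genes are blue at the upper right and 159 at the lower left, and the red points, with Gbp2 and Nnat among them, pass in opposite directions.

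With small RNA genes left out, the gene farthest apart downward among those that passed in both pairs was Hprt (NM_013556, mm9 chrX:50341255-50374837), which encodes the purine salvage enzyme hypoxanthine guanine phosphoribosyltransferase. Cells without it survive thioguanine, and widely used sublines of E14 were selected for its loss. Hprt had an FPKM of 0.567 in E14 shCtrl and 0.77 in E14 shSetd2, against 114 in E36 wild type and 87.7 in E36 Eed KO. The E36 EBs had 35.8 (wild type) and 19.25 (Eed KO), so every E36 library was far above both E14 libraries. The differences were -6.20 in the control pair and -5.65 in the second pair. Of the expressed neighbours, Phf6, a chromatin-associated zinc finger protein, had 7.59 and 9.4 in E14 and 14.7 and 17.6 in E36 ES cells, differences of -0.87 and -0.84 that did not reach the size rule. Plac1, Fam122b, Mospd1 and Ccdc160 nearby also stayed within it, with differences from -0.62 to 0.54 over both pairs, as did Gpc3 and Rtl8c, with -0.58 and -0.75 in the control pair and -0.65 and -0.15 in the second. Gpc4, a glypican of the cell surface, was lower in the control pair, with 4.81 in E14 shCtrl and 13.3 in E36 wild type, and did not pass in the second, with 5.56 and 6.31.

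Mid1 (NM_010797, mm9 chrX:166123179-166428729) was the gene farthest apart upward on the same terms. It encodes a microtubule-associated ubiquitin ligase and, in laboratory mice, spans the boundary of the pseudoautosomal region, the part that the X and Y chromosomes share. Its FPKM was 288 in E14 shCtrl and 161 in E14 shSetd2, and 2.86 and 3.12 in the E36 wild type and Eed KO ES cells. The EBs had 3.25 and 3.34, so the 4 E36 libraries lay within a narrow range while both E14 libraries were far above it. Differences were 6.23 and 5.30. The non-coding G530011O06Rik, listed at the same locus, had 22.9 and 20.2 in E14 and 6.09 and 6.62 in E36 ES cells. A coding transcript without a symbol, also listed there, was not higher in E14. It had 0.776 and 0 in E14, 1.32 and 0.398 in E36 ES cells and 5.15 and 3.46 in the EBs. Reads of transcripts that share a locus cannot be assigned by strand in these libraries. The neighbouring Hccs, which attaches haem to cytochrome c, had 13.3 and 13.1 in E14 and 15.6 and 14.5 in E36 ES cells, within the size rule, as was Msl3. Prps2, which makes the precursor of purine and pyrimidine nucleotides and lies farther from Mid1, passed downward in the control pair, with a difference of -1.10, and was at -0.01 in the second.

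On chromosome 17, 3 adjacent genes were higher in E14 in both pairs. Glo1, the glyoxalase that removes methylglyoxal made by glycolysis, had 138 in E14 shCtrl and 128 in E14 shSetd2 against 46.5 and 49.2 in E36 wild type and Eed KO ES cells, and 40.6 and 39.3 in the EBs. The differences were 1.55 and 1.36, and no E36 library reached an E14 one. The non-coding 1700097N02Rik had 20.7 and 23 in E14 against 1.58 and 3.23, and Dnah8, an axonemal dynein heavy chain, had 3.31 and 4.53 against 0.821 and 1.47. Neighbours Btbd9 and Zfand3 did not pass the size rule, with differences from -0.36 to 0.45 over both pairs.

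Other genes higher in E14 in both pairs had varied roles. Nupr1, a stress-induced chromatin protein, had 58 and 30.2 in E14 against 3.48 and 6.67 in E36 ES cells. Stra8, the retinoid-induced gatekeeper of meiosis, had 11.7 and 12.4 against 1.4 and 4.13. Rpl39l, a ribosomal protein paralog known from the testis, had 57.5 and 39.2 against 12.4 and 10.6. In each of these 3 genes both E14 libraries were above both E36 ES libraries by the size rule. Lysosomal and lipid-handling genes were among them as well. Hexa, a subunit of lysosomal beta-hexosaminidase, had 42.7 and 23 in E14 against 10.1 and 8.23. Apoe, the lipoprotein that carries cholesterol, had 454 and 181 in E14 against 119 and 63.6, and its lower E14 library was less than the size rule above the higher E36 library. The remaining genes that the naming rule picked here were Gpr19, Napsa, Uap1l1, Grasp, Patl2, Renbp, Isoc2a and Slc6a9, with control-pair differences of 1.84 to 2.62 and second-pair differences of 1.10 to 1.85. Gpx4, which detoxifies lipid peroxides, had 728 and 671 in E14 against 326 and 289.

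**Figure D2:**
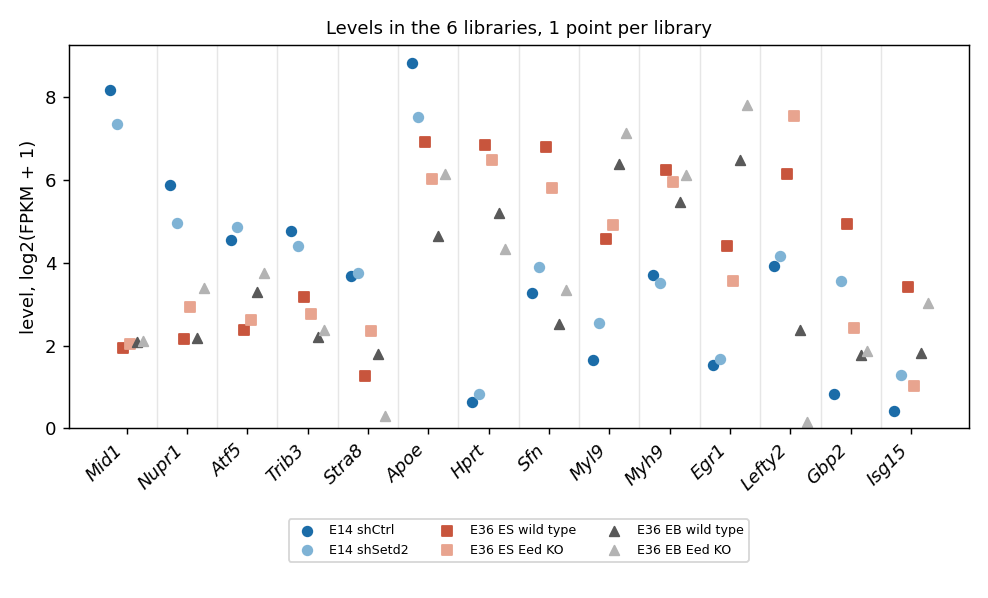
Level of 14 named genes in the 6 RNA-seq libraries as log2(FPKM + 1), 1 point per library, with circles for E14, squares for E36 ES cells and triangles for E36 EBs. The circles of Mid1 (FPKM 288 and 161) stand above all E36 points and those of Hprt (0.567 and 0.77) below them, whereas for Gbp2 and Isg15 the E36 wild type square is the highest point and E36 Eed KO lies among the other libraries.

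Integrated stress response genes were higher in E14 in both pairs. This response joins several kinases that phosphorylate the initiation factor eIF2 to the translation of the transcription factor Atf4, which drives amino acid synthesis and transport, transfer RNA charging and redox genes. Of 34 expressed genes of the list, 14 were higher and 0 lower in the control pair, where 3.14% of all genes were higher. In the second pair 15 of 35 were higher, 0 were lower, and 11 genes were higher in both, 7 of them with both E14 libraries above both E36 ES libraries by the size rule. The list's median difference was 0.83 in the control pair and 0.49 in the second pair.

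The factors of the response were among the higher genes. Atf4 itself had an FPKM of 180 in E14 shCtrl and 152 in E14 shSetd2 against 76.2 in E36 wild type and 57.2 in E36 Eed KO. Atf5, a related factor, had 22.6 and 28.1 against 4.23 and 5.15, with differences of 2.17 and 2.24. Ddit3, the factor also known as CHOP, had 16.7 and 12.3 against 4.68 and 4.1 in E36 ES cells, but 22.5 and 26.7 in the E36 EBs. In all 3 both E14 libraries were above both E36 ES libraries. Target genes with feedback or metabolic roles were higher as well. Trib3, a pseudokinase that restrains Atf4, had 26.4 and 20 against 8.06 and 5.77, differences of 1.59 and 1.63. Chac1, which degrades glutathione, had 22.1 and 20.5 against 9.35 and 4.72. Sars, the seryl transfer RNA synthetase, had 108 and 91.6 against 38.8 and 35.5. Slc7a1, a cationic amino acid transporter, was higher in the control pair only: 27.7 in E14 shCtrl and 8.28 in E36 wild type, against 19.15 in E14 shSetd2 and 15.8 in E36 Eed KO. Atf4, Chac1 and Sars were picked for mention after their values were seen. Heat shock and unfolded protein response genes did not share this direction: 0 of 30 were higher, 1 was lower, and the median was -0.41. That lower gene was Hspa5, the chaperone BiP, at 98.8 and 115 in E14 against 203 and 233 in E36 ES cells.

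Promoter windows of 3 higher genes are shown because Atf4 is known to act through composite elements with the core TGATGNAA. Each window runs from 250 bases before to 50 bases after the annotated start, from RefSeq on GRCm38.p6, in the gene's own direction, with capitals for a match to TGATGNAA on either strand.
Trib3 (chr2:152344011-152344310, minus strand): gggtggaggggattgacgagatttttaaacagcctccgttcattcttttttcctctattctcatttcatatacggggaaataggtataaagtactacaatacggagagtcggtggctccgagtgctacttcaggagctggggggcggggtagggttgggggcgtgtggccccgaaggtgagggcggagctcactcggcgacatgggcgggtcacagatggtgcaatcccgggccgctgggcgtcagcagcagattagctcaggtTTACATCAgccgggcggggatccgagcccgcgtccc
Chac1 (chr2:119350992-119351291, plus strand): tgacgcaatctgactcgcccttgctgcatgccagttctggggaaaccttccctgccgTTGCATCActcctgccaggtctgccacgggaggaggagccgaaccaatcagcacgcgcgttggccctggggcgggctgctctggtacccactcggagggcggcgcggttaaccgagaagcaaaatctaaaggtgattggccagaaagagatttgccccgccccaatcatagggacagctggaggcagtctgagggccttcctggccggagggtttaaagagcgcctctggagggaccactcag
Nupr1 (chr7:126625421-126625720, minus strand): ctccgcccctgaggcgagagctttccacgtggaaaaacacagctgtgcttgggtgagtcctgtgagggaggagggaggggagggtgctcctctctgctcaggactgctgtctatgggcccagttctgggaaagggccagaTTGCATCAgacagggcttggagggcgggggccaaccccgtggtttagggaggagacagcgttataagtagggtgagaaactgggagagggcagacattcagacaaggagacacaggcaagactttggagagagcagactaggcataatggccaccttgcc
The core was found in 3.97% of all 32851 windows, in windows of 10 of the 29 list genes that had one, and in 3 of the 11 that were also higher in the control pair, which are the 3 printed. A match is a string of letters and not a measured binding site.

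Genes of the 2-cell-like state were also higher in E14. A small share of ES cells at any time transcribes genes of the embryo's major genome activation, with the Zscan4 cluster as its best known marker. Of 18 expressed genes of the list, 12 were higher and 1 lower in the control pair, 14 of 17 were higher and 0 lower in the second pair, and the 12 passed in both. Median differences were 1.10 and 2.02, and 3.14% and 2.5% of all expressed genes were higher in the control and second pairs. In bulk RNA, more cells in a state and more RNA per cell cannot be told apart, here and in the lists of cell states below. Zscan4c, which protects telomeres, had an FPKM of 42 and 61.3 in E14 against 19 and 11.9 in E36 ES cells, and Zscan4f had 46.8 and 66.8 against 21.1 and 12.8. In the E36 EBs, Zscan4c was at 1.54 and 0.0711. Tdpoz4, a germ-line BTB-domain protein, had 8.69 and 12.2 against 1.72 and 1.39, and Usp17le, a deubiquitinase gene, had 8.76 and 11.4 against 2.36 and 2.06. For all 12 genes both E14 libraries exceeded both E36 ES libraries by the size rule. These families consist of near-identical copies, so the division of reads among members is uncertain and the members are not independent. The gene lower in the control pair was Zfp750, an epidermal factor, at 0.0785 in E14 shCtrl and 1.52 in E36 wild type.

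Meiotic genes were mixed, with 5 higher and 1 lower of 33 in the control pair and 2 higher and 6 lower of 33 in the second pair. All expressed genes had 3.14% higher and 5.65% lower in the control pair, and 2.5% and 6.69% in the second. Some of the meiotic counts are near these shares. Sycp3, of the synaptonemal complex, had 12.9 and 13.5 in E14 against 4.6 and 2.96 in E36 ES cells, apart in every library, as was Stra8 above. Stag3, a meiotic cohesin subunit, had 25.6 and 22.3 in E14, 6.51 in E36 wild type and 21 in E36 Eed KO, so only E36 wild type stood low.

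**Figure D3:**
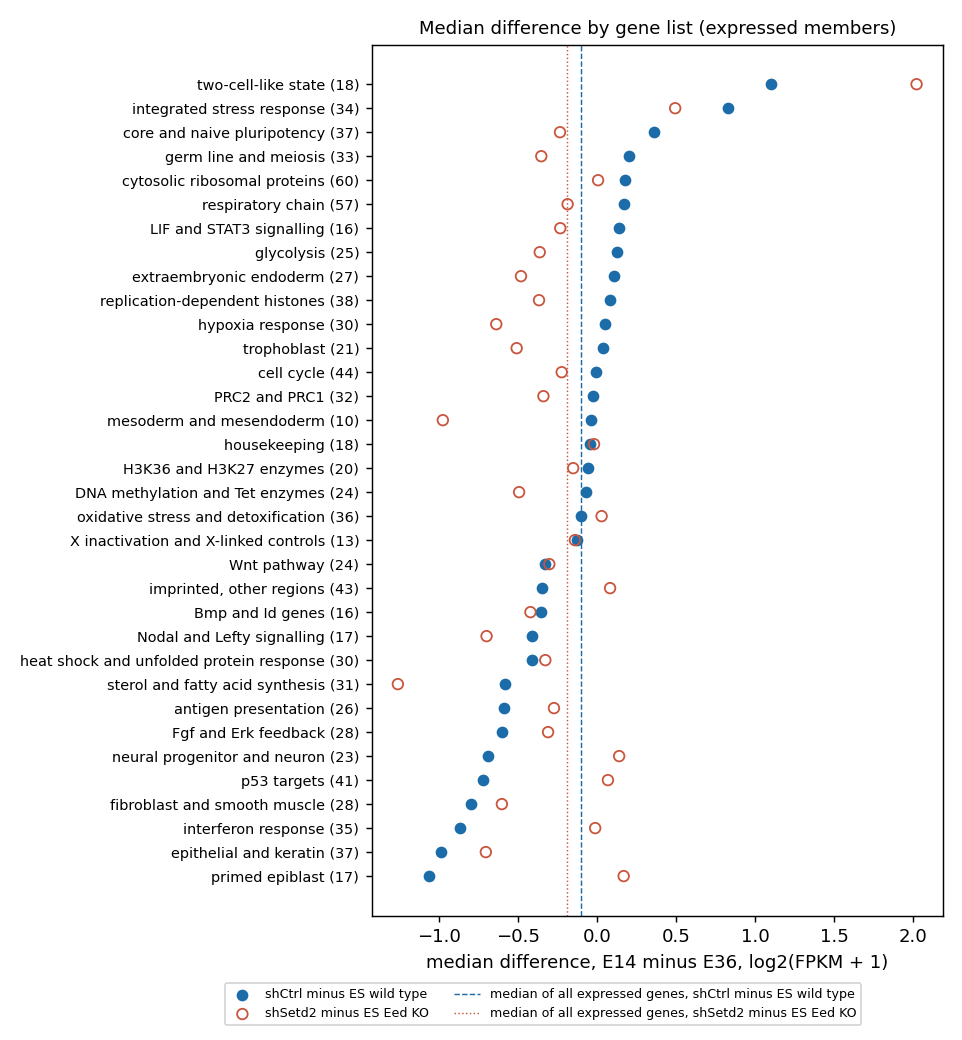
Median difference of log2(FPKM + 1), E14 minus E36, of the expressed members of each gene list with at least 10 of them (number in parentheses, control pair), filled for the control pair and open for the second pair; vertical lines give the medians of all expressed genes. The 2-cell-like list (1.10 and 2.02) and the integrated stress response (0.83 and 0.49) lie to the right in both pairs, the epithelial (-0.99 and -0.70) and sterol (-0.58 and -1.26) lists to the left in both, and the primed epiblast, p53 and interferon lists to the left in the control pair only.

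Many genes of epithelial adhesion and many keratins were lower in E14. Of 37 expressed epithelial and keratin genes, 18 were lower and 0 higher in the control pair, against 5.65% of all genes lower. In the second pair 12 of 35 were lower and 1 higher, and 8 were lower in both pairs, each with both E14 libraries below both E36 ES libraries by the size rule. Medians were -0.99 and -0.70. Sfn, the 14-3-3 sigma protein of epithelia, had an FPKM of 8.66 in E14 shCtrl and 13.9 in E14 shSetd2 against 110 and 55.1 in E36 wild type and Eed KO ES cells. Cldn7, a tight junction claudin, had 3.65 and 5.73 against 34.7 and 19.8. Cldn6, the claudin of early embryonic epithelia, had 12.2 and 20.3 against 61.7 and 66.6. Krt19, an intermediate filament keratin, had 4.53 and 6.94 against 62.3 and 15.6, so the E36 libraries themselves were far apart. Its partner Krt8 had 27.2 and 46.4 against 113 and 54 and passed the size rule in the control pair only. Cdh1, the E-cadherin that holds ES colonies together, had 74 and 66.2 against 197 and 205, and was picked for mention after its values were seen.

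The fibroblast and smooth muscle list had 11 lower and 0 higher of 28 genes in the control pair and 8 lower and 0 higher of 32 in the second pair, with medians of -0.80 and -0.60, and 2 genes, Myl9 and Thbs1, were lower in both. Lower genes made up 5.65% and 6.69% of all expressed genes in these pairs. The list's counterpart among the cell type markers, the feeder sum, was also lower in E14, as given above, and its part in these values was not tested. Myl9, a regulatory light chain of smooth muscle myosin, had 2.15 and 4.8 in E14 against 22.7 and 28.9 in E36 ES cells. Myh9, the heavy chain of nonmuscle myosin and no member of the list, had 12 and 10.4 against 73.9 and 61, differences of -2.53 and -2.45. Thbs1, a matrix glycoprotein, had 4 and 4.36 against 30.6 and 14.5. In these 3 genes all E14 values were below all E36 ES values. Tagln, an actin-binding protein, separated the control pair (15.1 against 115) more than the second (21.5 against 39.1), and Cnn1, calponin, did likewise (0.881 against 11.5, and 1.7 against 3.5). The collagen gene Col1a2 stood at 7.37 in E36 wild type and from 0.559 to 1.92 in the other 3 ES libraries. Actb, cytoplasmic actin, was at 751 and 788 in E14 and 1412 and 1310 in E36 ES cells, within the size rule in both pairs, while Gapdh had 2348 and 1927 against 1891 and 2256. Further lower genes of varied roles were Fat1, Itga3, Nes, Magohb and Cybc1, with control-pair differences of -2.27 to -2.92 and second-pair differences of -1.01 to -1.76.

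The immediate early gene Egr1 was lower in E14 in both pairs. This growth factor induced zinc finger protein had an FPKM of 1.89 and 2.18 in E14 against 20.2 and 10.8 in E36 ES cells. Jun had 1.94 and 2.82 against 9.08 and 5.09, and Junb 10.3 and 8.91 against 31.9 and 17.6, both past the size rule in the control pair only. Of 28 expressed Fgf and Erk feedback genes, 6 were lower and 1 higher in the control pair and 3 lower and 3 higher in the second pair. Among 44 cell cycle genes, 4 were lower and 1 higher in the control pair. Over all expressed genes 5.65% were lower and 3.14% higher in the control pair, and 6.69% and 2.5% in the second. The cell cycle counts are small and not far from these shares. The D-type cyclins differed in direction: Ccnd1 had 20 and 14.6 in E14 against 49.6 and 31.4, Ccnd2 had 2.23 and 2.98 against 9.49 and 10.5, and Ccnd3 had 155 and 112 against 69 and 70.1. Ccnd1 and Ccnd2 were lower in both pairs, and Ccnd3 was higher in the control pair, with a difference of 0.67 in the second.

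Some Nodal signalling genes were lower in E14, with 4 lower and 0 higher of 17 in the control pair and 5 lower and 0 higher of 17 in the second. Lefty2, a secreted Nodal inhibitor that is itself a Nodal target, had an FPKM of 14.2 and 17 in E14 against 69.2 in E36 wild type and 184 in E36 Eed KO. Lefty1, its paralog, had 40.7 and 58.9 against 113 and 96.3, and passed in the control pair only. The list medians were -0.41 and -0.70. Of all expressed genes 5.65% were lower in the control pair and 6.69% in the second.

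Sterol and fatty acid synthesis genes were lower in E14, more of them in the second pair. In the control pair 7 of 31 were lower and 0 higher, in the second pair 19 of 30 were lower and 0 higher, and the medians were -0.58 and -1.26. The shares of all expressed genes that were lower were 5.65% and 6.69%. Scd2, a desaturase that makes monounsaturated fatty acids, had an FPKM of 30.2 and 28.1 in E14 against 106 and 102 in E36 ES cells. Scd1, a further desaturase, had 5.1 and 4.67 against 16.8 and 28.3. Srebf1, the transcription factor over fatty acid synthesis, had 12.3 and 10.2 against 27.7 and 27.1. Fdft1, squalene synthase, had 9.78 and 9.01 against 26.1 and 35.8 and lies in the chromosome 14 stretch described further on. In these 4 genes both E14 libraries were below both E36 ES libraries by the size rule. Fasn, fatty acid synthase, had 40 and 43.5 against 112 and 65.8 and passed in the control pair only. After rescaling by upper quartiles or by the median of ratios, 4 genes of the list passed the size rule downward in the control pair.

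Core pluripotency factors were close in all ES libraries. Pou5f1 (Oct4) had an FPKM of 715 and 493 in E14 and 586 and 540 in E36 ES cells, and Sox2 had 185 and 149 against 177 and 186. Nanog had 241 and 207 in E14 against 146 in E36 wild type and 256 in E36 Eed KO. Of 37 core and naive pluripotency genes, 7 were higher and 1 lower in the control pair, but 2 were higher and 4 lower in the second pair, and 0 were higher in both. The shares over all expressed genes were 3.14% higher and 5.65% lower in the control pair, and 2.5% and 6.69% in the second. Tfcp2l1, a naive-state factor downstream of LIF, had 48.6 in E14 shCtrl and 11.6 in E36 wild type, with 21.7 in E14 shSetd2 and 22.8 in E36 Eed KO. Esrrb, an orphan nuclear receptor of the naive state, had 142 and 46.3 in the control pair and 71 and 108 in the second pair. Tcl1, a coactivator of Akt, had 81.9 and 21.3, then 35.5 and 57.1. Klf4 had 41.1 and 20.1, then 30.8 and 42.6. In these 4 genes E36 wild type was the lowest of the ES libraries and E14 shCtrl was, except for Klf4, the highest, with the second pair in between or reversed.

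The primed epiblast list differed in the other direction, again in the control pair. In the control pair 10 of 17 genes were lower and 0 higher, with a median of -1.06, while in the second pair 3 were lower and 1 higher, with a median of 0.17. Beside these counts, 5.65% and 6.69% of all expressed genes were lower in the control and second pairs. Pou3f1 (Oct6), a POU factor of the primed state, had an FPKM of 3.87 in E14 shCtrl and 23.5 in E36 wild type, and 14.1 and 8.03 in the second pair. Sox3 had 0.86 and 5.78, then 2.21 and 3.37, and Lef1, the Wnt effector, 2.51 and 9.24, then 8.47 and 15.3. Dnmt3b, the de novo DNA methyltransferase, had 34.7 and 72.5 in the control pair and 72.7 and 36 in the second pair, with E14 shSetd2 level with E36 wild type. The kinase gene Pim2 had 18.4 and 56.7, then 69.2 and 15.1. Cldn6 above was lower in both pairs.

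Several targets of the tumour suppressor p53 were higher in the E36 wild type ES library than in the other 3 ES libraries. Of 41 expressed targets, 13 were lower and 2 higher in the control pair, with a median of -0.72, but 4 of 38 were lower and 5 higher in the second pair, with a median of 0.07. All expressed genes had 5.65% lower and 3.14% higher in the control pair, and 6.69% and 2.5% in the second. Trp53 itself, on chromosome 11, had a summed FPKM over its transcripts of 284 in E36 wild type and of 75.1, 65.9 and 76.2 in E14 shCtrl, E14 shSetd2 and E36 Eed KO. Ccng1, a p53-induced cyclin also on chromosome 11, had 104 in E36 wild type and 14, 13.5 and 7.5 in the same 3 libraries. Perp, a desmosomal target of p53, had 39.9 against 6.36, 7.9 and 5.9. Phlda3, which restrains Akt, had 31 against 6.73, 6.99 and 5.21. Among the ES libraries E36 wild type stood apart in each, with E36 Eed KO close to E14. The E36 EBs, wild type and then Eed KO, had 145 and 14.5 for Ccng1, 34.5 and 12.1 for Phlda3, 9.15 and 12.3 for Perp and a summed 70.7 and 0.157 for Trp53. Cdkn1a, a p53-induced inhibitor of the cell cycle, had 19 in E36 wild type ES cells and 4.4 to 6.66 in the other 3 ES libraries, and 81 and 5.32 in the EBs. For Ccng1, Phlda3 and Cdkn1a the wild type EBs thus stood higher than the wild type ES cells, whereas for Perp and Trp53 they stood lower. Btg2, an antiproliferative target, was lower in both pairs, with 2.33 and 3.09 in E14 against 13.2 and 7.99, and had 47.1 and 19.13 in the EBs. Pltp, a phospholipid transfer protein, was highest in E14 shCtrl, at 48.1 against 11 in E36 wild type, with 17.2 and 10.6 in the second pair.

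Interferon and antigen presentation genes were also lower mainly in the control pair. Unlike Ccng1, Perp and Phlda3, the genes Gbp2, Irgm1 and Irf1 were well above E14 shCtrl in E36 Eed KO. Interferons signal through STAT factors to a broad antiviral set, which includes the proteasome and transporter subunits that load peptides on MHC class I. In the control pair 13 of 35 interferon response genes were lower and 0 higher, with a median of -0.87, and in the second pair 2 were lower and 2 higher of 31, with a median of -0.01 that rescaling turned to between 0.02 and 0.19. Gbp2, an interferon-induced GTPase, had an FPKM of 0.791 in E14 shCtrl and 29.4 in E36 wild type, then 10.7 in E14 shSetd2 and 4.4 in E36 Eed KO. Isg15, a ubiquitin-like antiviral protein, had 0.339 and 9.62, then 1.45 and 1.03. Irgm1, an immunity-related GTPase, had 1.41 and 16.2, then 5.34 and 10.6. Irf1, a factor that drives many of these genes, had 7.58 and 40.4, then 20.8 and 17.7. In all 4 genes E14 shCtrl was the lowest and E36 wild type the highest of the ES libraries. On chromosome 3 the adjacent Gbp7, Gbp3, Gbp2b and Gbp2 were all lower in the control pair and 0 of them in the second pair. Of 26 antigen presentation genes, 11 were lower and 0 higher in the control pair, against 0 lower and 1 higher in the second. For both lists, the share of all expressed genes that was lower was 5.65% in the control pair and 6.69% in the second. Psmb8, an immunoproteasome subunit, had 0.624 and 8.7, then 5.67 and 1.38. Chromosomes 3, 6, 8, 11 and Y had been shown by earlier results of these data to be shifted. With them left out, 7 interferon, 9 p53 and 10 antigen presentation genes were lower in the control pair, among 487 lower genes in all. The numbers of expressed genes left are not given. Chromosome 14 was kept, and Psme2 (-2.22) of the antigen presentation list lies in its stretch described further on. The part of regional shifts in these lists was not tested.

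Promoter windows of 3 of these genes are shown because interferon-activated factors bind elements in which GAAA stands before another GAAA at a spacing of 2 bases, marked here in capitals on either strand, with overlapping matches run together.
Gbp2 (chr3:142620413-142620712, plus strand): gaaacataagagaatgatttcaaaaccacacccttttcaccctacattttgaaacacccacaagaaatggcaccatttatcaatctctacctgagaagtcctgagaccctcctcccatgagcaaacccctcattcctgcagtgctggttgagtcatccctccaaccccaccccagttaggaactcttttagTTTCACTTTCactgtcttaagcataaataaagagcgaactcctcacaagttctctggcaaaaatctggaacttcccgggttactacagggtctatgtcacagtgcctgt
Isg15 (chr4:156200769-156201068, minus strand): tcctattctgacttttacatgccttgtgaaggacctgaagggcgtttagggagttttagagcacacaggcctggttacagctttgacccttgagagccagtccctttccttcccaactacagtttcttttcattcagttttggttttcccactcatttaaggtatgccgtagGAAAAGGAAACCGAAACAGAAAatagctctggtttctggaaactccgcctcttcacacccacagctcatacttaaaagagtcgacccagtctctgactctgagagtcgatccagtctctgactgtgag
Irgm1 (chr11:48871371-48871670, minus strand): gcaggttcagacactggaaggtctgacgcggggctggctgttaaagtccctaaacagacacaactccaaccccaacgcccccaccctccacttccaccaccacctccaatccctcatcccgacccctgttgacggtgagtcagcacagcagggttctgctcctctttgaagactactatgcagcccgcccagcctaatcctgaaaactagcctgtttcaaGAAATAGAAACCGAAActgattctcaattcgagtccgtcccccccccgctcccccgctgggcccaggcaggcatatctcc
The Isg15 window held 3 matches, Irgm1 held 2 and Gbp2 held 1. This pattern was found in 3.44% of all windows, in windows of 23 of the 38 list genes that had one, and in 7 of the 10 that were also lower in the control pair.

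Genes that passed in the control pair, and not in the same direction in the second, were led by Ly6a, Lgals3, Srgn, Mylpf, S100a13, Septin1, Bdh2 and Aqp3 upward, with differences of 2.07 to 2.76. Lgals3, a galactose-binding lectin, had 29.2 in E14 shCtrl and 4.58 in E36 wild type, and 12.5 and 9.67 in the second pair. Mylpf, a muscle myosin light chain, had 120 and 22.5, then 55.9 and 51.8. Downward they included Igfbp3, which binds insulin-like growth factors, at 9.67 and 77, then 14.3 and 8.53. The transcript named Rps27 is listed at 51.2 in E36 wild type and at 0 in the other 5 libraries, and no fold is given.

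Imprinted genes outside the Dlk1-Dio3 region had 1 higher and 8 lower of 43 in the control pair and 5 and 5 of 41 in the second pair. The all-gene shares were 3.14% higher and 5.65% lower, then 2.5% and 6.69%. Grb10, an adaptor that restrains insulin signalling, had an FPKM of 6.53 and 7.43 in E14 against 32.3 and 27.6 in E36 ES cells. Ndn, necdin, had 4.16 and 6.08 against 17.2 and 16.9, and its neighbour in the same imprinted domain, Peg12, had 0.746 and 0.848 against 3.21 and 4.96. These 3 were lower in both pairs with no overlap of the lines. Nnat, neuronatin, had 3.12 and 30.4 in the control pair but 6.9 and 0.771 in the second.

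Several lists had few genes past the size rule. Among all expressed genes 3.14% were higher and 5.65% lower in the control pair, and 2.5% and 6.69% in the second. The Polycomb and the H3K36 and H3K27 enzyme lists are small, and their counts are near these shares. Of 57 respiratory chain genes, 0 were higher or lower in the control pair and 1 was lower in the second pair. Cytosolic ribosomal protein genes gave 0 calls of 60 in the control pair and 1 lower in the second, replication-dependent histones 0 of 38 in both, and H3K36 and H3K27 enzymes 0 of 20 in the control pair and 1 lower in the second. Polycomb subunits had 1 higher and 1 lower of 32 in the control pair; Ezh2, the methyltransferase of the complex, had 48.2 and 39.5 in E14 against 45.9 and 67.1, and Suz12 had 71.3 and 54.4 against 82.3 and 78.7. Medians of the Polycomb, H3K36 and H3K27 enzyme, DNA methylation, oxidative stress, cell cycle and housekeeping lists were at most 0.10 in size in the control pair and changed sign with the scaling. In the second pair they were -0.34, -0.15, -0.49, 0.03, -0.22 and -0.02, beside -0.19 for all expressed genes. The mesoderm list had a median of -0.04 in the control pair, with 1 higher and 3 lower of 10, and of -0.98 in the second pair, with 0 higher and 5 lower of 12.

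Differences were also uneven along the genome. Among genes with an FPKM of at least 5, and after subtracting the median of all such genes, chromosome 8 had a median of -0.34 over 525 genes in the control pair and -0.34 in the second pair, with 79.8% and 81.9% of its genes below the all-gene median. Chromosome 11 had a median of -0.46 over 801 genes in the control pair, with 83.5% below, but 0.04 in the second pair, with 45.6% below. Against E36 Eed KO, E14 shCtrl had 0.06 on chromosome 11, so the shift went with the E36 wild type library. Chromosomes 3 and 6 were at 0.05 and 0.09 in the control pair and at -0.30 and -0.46 in the second pair. There E14 shCtrl against E36 Eed KO was at -0.32 and -0.47, so these shifts went with the E36 Eed KO library. The other 15 chromosomes, leaving out Y with its few expressed genes and chromosome 14, ranged from -0.04 to 0.12 and from 0.00 to 0.10. Of the genes described above as lower in the control pair, Trp53, Ccng1, Krt19, Cldn7, Irgm1, Irf1, Grb10, Fasn, Srebf1, Igfbp3, Itga3, Cybc1 and Zfp750 lie on chromosome 11, and Cdh1, Fat1 and Junb on chromosome 8. The part of the chromosome shifts in their values was not tested.

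**Figure D4:**
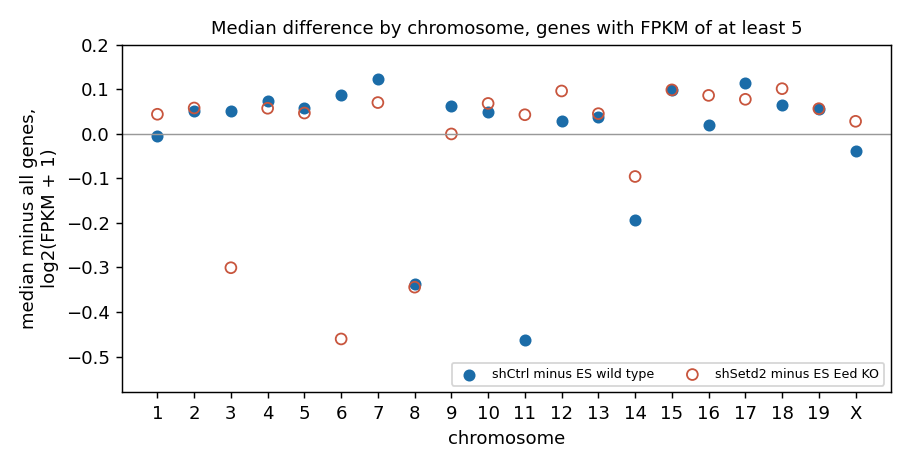
Median difference of log2(FPKM + 1) by chromosome minus the median of all genes, for genes with an FPKM of at least 5, filled for the control pair and open for the second pair, with chromosome Y left out. Chromosome 8 is at -0.34 in both pairs, chromosome 11 (-0.46) is low in the control pair only, and chromosomes 3 (-0.30) and 6 (-0.46) in the second pair only.

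Chromosome 14 was low in both pairs, at -0.19 and -0.10, and the shift was carried by a stretch rather than by the whole chromosome. A search along the gene order found 87 genes from Otx2 to Kif13b (mm9 chr14:49277859-65425133) with medians of -0.86 in the control pair and -0.79 in the second pair. Since the stretch was found by its values, these are a description. Of the 87 genes, 79 were below the all-gene median in both pairs, 37 passed the size rule downward in the control pair, 25 did so in both, and 1 passed upward in the control pair. The remaining 196 genes of the chromosome had medians of 0.04 and 0.10, but they were not uniform. The 14 genes in the first 10 Mb had medians of -0.83 and -0.78. Most of these are numbered Gm loci, some of them in a locus that the table merges, and 4 neighbours there were lower in both pairs. From 90 Mb on, windows of 10 Mb with 4 to 10 genes each had medians of -0.23 to 0.21 in the control pair and of 0.85 to 1.12 in the second. Otx2, the homeobox factor of the primed epiblast and forebrain, had an FPKM of 6.6 and 11.6 in E14 against 20.7 and 33.5 in E36 ES cells. Chd8, a chromatin remodeller, had 9.08 and 9.42 against 26.7 and 25.9. Mettl3, the RNA adenosine methyltransferase, had 7.34 and 6.34 against 17.4 and 16.1.

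Within a line, 0 of the 87 genes differed by the size rule between the E14 libraries, and 4 (Abhd4, Ajuba, Sdr39u1 and Rnf17) did between the E36 ES libraries. The median size of the difference was 0.17 in E14 and 0.21 in E36. The same shares over all genes are not given here. The stretch was chosen by low values in both pairs, which favours agreement within a line, so these counts are a description only. Prmt5, an arginine methyltransferase, had 36.2 and 30.2 in E14 against 89 and 86.4, and Supt16, a subunit of the histone chaperone FACT, had 47.4 and 51.3 against 104 and 111. Mrpl52, of the mitochondrial ribosome, had 52.4 and 45.7 against 134 and 149, Slc7a7, an amino acid transporter, 14.6 and 12.9 against 47.8 and 43.9, and Mmp14, a membrane metalloprotease, 3.56 and 2.95 against 16 and 10.7. At one edge Kif13b, a kinesin, was at -0.52 and -0.63 relative to all genes and its neighbour Ints9, of the Integrator complex, at 0.13 and 0.14. At the other edge Otx2 was at -1.42 and -1.26 and the genes before it at 0.52 and -0.03 (Gm6498), -0.13 and 1.04 (Ktn1) and 1.26 and 1.48 (Atg14). Of 151 windows of 10 Mb with at least 20 genes across the genome, 1 was lower by at least 0.5 in both pairs, within this stretch, and 0 were higher. DNA copy number was not measured in the data used here.

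**Figure D5:**
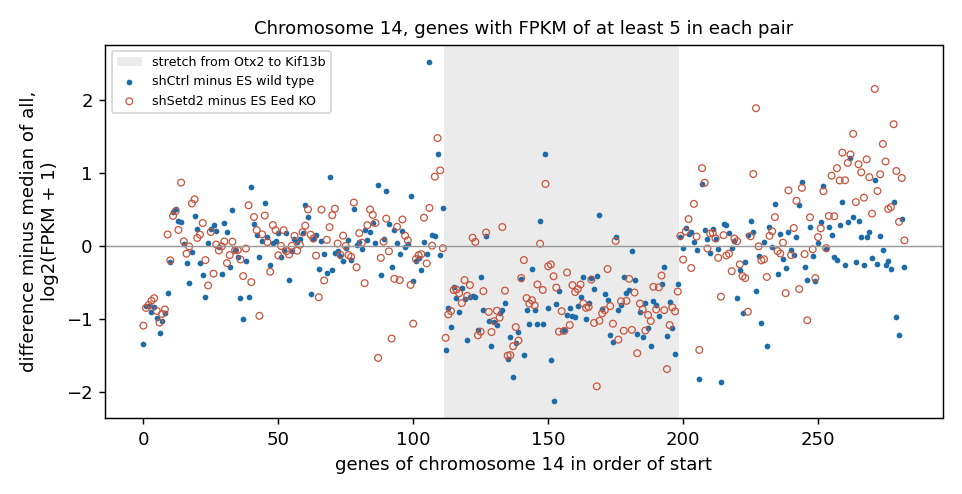
Difference of log2(FPKM + 1) minus the median of all genes for each chromosome 14 gene with an FPKM of at least 5 in each pair, in order of start, filled for the control pair and open for the second pair, with the stretch from Otx2 to Kif13b shaded. In the shaded stretch the points lie around -0.86 and -0.79 and step back to about 0 past its right edge, while the 3 genes before its left edge lie from -0.13 to 1.48; points at the far right are raised in the second pair only.

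Neighbouring genes that all passed the size rule in the same direction formed 27 runs of at least 3 expressed genes, 8 higher and 19 lower, with 101 genes in all. In 8 runs every gene also passed in the second pair. Of the runs, 6 lay on chromosome 14, among them Supt16, Chd8 and Mettl3, and the 6 genes Slc7a7, Mrpl52, Mmp14, Lrp10, Rem2 and Prmt5, of which Rem2 alone did not pass in the second pair. On chromosome X, Pnma5 and Pnma3, of a retrotransposon-derived family, and Xlr3a and Xlr3b, members of an imprinted multicopy family, were lower in both pairs. Pnma5 had an FPKM of 7.68 and 6.68 in E14 against 23.1 and 24.3 in E36 ES cells, and Xlr3a had 0.756 and 0.854 against 3.58 and 8.18. An FPKM under 0.1 in both libraries of 1 line and of at least 5 in both ES libraries of the other was found for 15 genes, and all 15 encode small RNAs.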

How the data were processed

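Libraries were prepared from total RNA with TruSeq RNA kit version 2, an unstranded poly(A) protocol, per the labels' protocols. The deposited values are FPKM per RefSeq transcript, which the authors obtained with TopHat and Cuffdiff on mm9, per the submitters' processing notes; no version, option or scaling method was found in those sources. Absolute depth is unknown, and relative depth came from the lowest steps of values in 2211 transcripts for E14 shCtrl, 2131 for E36 Eed KO and 2100 for E14 shSetd2. Accessions matched a symbol in a RefSeq table of GRCm38.p6, used for names only, for 29296 of 29851 transcripts. For each of 23421 genes the transcript with the highest mean FPKM over the 6 libraries was used. Cuffdiff divides reads among the 3939 genes with several transcripts, and loci in the table are merged over overlapping transcripts. Positions are the table's own on mm9, with starts written from 1, since 213 of 216 lone hairpins have a length equal to end minus start.

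Differences of log2(FPKM + 1) used a pseudocount of 1, so that differences of low genes come out too small. No test was made, as each group has 1 library. A size rule of 1 was applied to genes with an FPKM of at least 1. The calling code and the chromosome median were tested on simulated data, and the rescaling code was not. Named genes were the 15 largest each way past the rule in both pairs. With them came the 8 largest each way among those that did not pass in the same direction in the second pair. Both sets took an FPKM of at least 5 and left out small RNA and numbered loci. Added were up to 5 genes per list, a fixed set of controls, and genes of runs. Outside these rules stand neighbours of Hprt, Mid1 and Glo1, genes of the chromosome 14 stretch and its edges such as Otx2, and Peg12. Others are said to have been picked later. The comparison, its members and the 38 gene lists (1224 of 1249 entries in the table) were chosen with earlier results of these data known. Promoter windows from RefSeq matched 9823 of the 12747 expressed genes. Alternatives varied the pseudocount, the filter, the transcript choice, the scaling, the size rule, the chromosomes and the pair. Leaving out small RNA genes, setting E14 shCtrl against E36 Eed KO, and the second pair's chromosome medians were added after seeing the data. Python 3.11.15, numpy 2.4.6, pandas 2.3.3 and matplotlib 3.10.9 were used.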

Additional observations from a re-analysis of the deposited data

Results flagged for a closer look

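Among genes with an FPKM of at least 5 in each pair, small RNA and numbered loci left out, 20 passed the size rule in opposite directions in the control pair and the second pair, 11 lower and then higher and 9 higher and then lower. The difference between the pairs was not tested, since each library is the only one of its group. Differences of log2(FPKM + 1) are E14 minus E36. Gbp2 was at -4.08 in the control pair and 1.12 in the second pair, and Psmb8, another interferon-induced gene, at -2.58 and 1.49. The imprinted Nnat was at -2.93 and 2.16, and the kinase gene Pim2 at -1.57 and 2.12. In the other direction, Aqp3, a water and glycerol channel, was at 2.07 and -1.46, and Ly6a, a surface antigen also known as Sca-1, at 2.76 and -1.26.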

How the results depend on the processing

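No paired analysis was possible because each group holds 1 library and the results come from no test. With a pseudocount of 0.1 the control pair had 654 higher and 1223 lower genes, and 202 and 362 in both pairs; with 5, it had 175 and 247, and 48 and 57. A difference of at least 2 left 88 higher and 109 lower, and 15 and 12 in both pairs. Genes lower in both pairs numbered 109 with upper quartiles, 107 with the median of ratios and 117 without chromosomes 3, 6, 8, 11 and Y. Without a filter on low values the medians of chromosomes 8, 11 and 14 were -0.18, -0.18 and -0.034. In the second pair chromosomes 11 and 14 were at 0.043 and -0.096, and with E36 Eed KO as the E36 library at 0.063 and -0.12.

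Of 912 values of 152 named genes under other pseudocounts, scalings and summed transcripts, 870 kept their side of the size rule, 35 no longer passed it, 7 newly passed it and 0 of genes past it changed direction. Of the named genes past the size rule in the control pair, these changed direction in the second pair: Aqp3 (-1.46), Ccng1 (0.77), Col1a2 (0.60), Dnmt3b (0.99), Esrrb (-0.60), Gata6 (-0.46), Gbp2 (1.12), Gbp2b (0.72), Gbp3 (0.074), Gbp7 (0.13), Igfbp3 (0.68), Irf1 (0.22), Isg15 (0.27), Ly6a (-1.26), Nnat (2.16), Perp (0.37), Phlda3 (0.36), Pim2 (2.12), Pou3f1 (0.74), Psmb8 (1.49), S100a13 (-0.52), Tcl1 (-0.67), Tfcp2l1 (-0.065) and Zfp750 (0.23). With E36 Eed KO against E14 shCtrl these did: Aqp3 (-0.16), Ccng1 (0.82), Igfbp3 (0.16), Ly6a (-0.29), Nnat (1.22), Perp (0.093), Phlda3 (0.32), Pim2 (0.27) and Zfp750 (0.019). Of the named genes within the rule, 15 and 10 changed sign in these comparisons, among them Klf4, Nanog and Ezh2 in both. The causes were not tested. Counting error cannot be stated, as the values hold no counts.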

Other observations

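Lists not described above had these values in the control pair and then the second pair. Beside them, 3.14% of all expressed genes were higher and 5.65% lower in the control pair, and 2.5% and 6.69% in the second. The hypoxia counts in the control pair are not far from these shares. Of 24 Wnt pathway genes, 1 was higher and 7 lower, then 0 higher and 4 lower of 25. Among 23 neural progenitor genes 3 were higher and 9 lower, then 2 and 2 of 26, and Nefl, a neurofilament light chain, had an FPKM of 6.13 and 6.38 in E14 against 26.8 and 12.6 in E36 ES cells. Extraembryonic endoderm genes had 5 higher and 3 lower of 27, then 1 and 5 of 24, and Gata6, the endoderm factor, had 3.22 in E14 shCtrl, 0.287 in E36 wild type, 0.821 in E14 shSetd2 and 1.51 in E36 Eed KO. Hypoxia response genes had 0 higher and 3 lower of 30, then 1 and 6 of 31. Only 2 HOX genes were expressed in the control pair, with 0 calls, against 21 in the second pair, of which 13 were lower in E14 shSetd2 than in E36 Eed KO. Of the list for the Dlk1-Dio3 imprinted region, 4 genes were expressed in the control pair with 0 calls. In the second pair 3 of 5 were higher in E14. The list leaves out short RNAs of the region that formed lower runs in the control pair (mm9 chr12:110842155-110987667). AF357355 was at 148 in E36 wild type and listed at 0 in E14 shCtrl, and Mir377 at 111 and 0. In the second pair both were listed at 0, while AF357425 was at 217 in E14 shSetd2 and 0 in E36 Eed KO. FPKM measures such short RNAs poorly.

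Transcripts of 40 genes passed the size rule in opposite directions within the control pair, and 7 of these genes also had transcripts past it each way in the second pair. In 2700038G22Rik, Dido1, Nrf1, Pum2 and Zdhhc24, 5 of the 7, at least 1 transcript was higher in both pairs and another lower in both, whereas Pus10 and Sipa1 had a transcript that passed in opposite directions in the pairs. Dido1, which encodes PHD-finger chromatin proteins, had transcript NM_011805 at 26.4 and 26.3 in E14 against 9.23 and 9.34 in E36 ES cells, and NM_175551 at 5.73 and 3.24 against 17.2 and 17.5. Nrf1, a regulator of nuclear genes for mitochondria, had NM_010938 at 9.08 and 6.28 in E14 against 1.58 and 2.06. These genes were singled out after their values were seen, and the division of reads among transcripts is an estimate of the software.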
